A study of Mus musculus with 6 samples.

Results

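The chemokine family was followed in cells of the mouse jawbone periosteum, the sheet of progenitor-rich tissue that covers bone. Members were all genes of the deposited tables whose symbol was Ccl, Cxcl, Ccr or Cxcr followed by a number, together with Cx3cl1, Cx3cr1, Xcl1, Xcr1 and Ackr1 to Ackr4. This gave 58 of 18002 listed genes, namely 36 ligands, 18 G protein-coupled receptors and 4 atypical receptors. Aggregates (labelled aggregate_P), in which the cells had assembled into spheroids in 3D culture, were compared with monolayers (labelled monolayer_P) grown in 2D. RNA was taken from both after 48 h. Each format had 3 libraries, and the labels give them the tissue and the term primary cells, with no strain, age, treatment or genetic change. Whether replicate libraries stem from different cultures or mice is not stated there. The p-values below therefore rest on the spread among the deposited samples, part or all of which may be technical.

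Chemokines are small secreted proteins that steer the migration of leukocytes and progenitor cells through G protein-coupled receptors. They are grouped by the spacing of their first cysteines into CC, CXC, XC and CX3C ligands, and their receptors are named after the ligands they bind. Atypical receptors bind chemokines without signalling through G proteins and remove or redistribute them. In bone, CXCL12 made by stromal cells retains CXCR4-bearing blood and skeletal progenitors, and CC ligands such as CCL2 recruit monocytes, some of which become osteoclasts.

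The libraries held between 21701046 and 21889110 counts each, and the median biological coefficient of variation per gene was 3.23%. Family members took 0.228% to 0.229% of all counts in aggregates and 0.118% to 0.122% in monolayers. Differences were common throughout these data. Of 13708 genes that passed the filter on low counts, 37.1% were called higher and 37.1% lower in aggregates at an adjusted p below 0.05, 74.2% in either direction (edgeR, Benjamini-Hochberg over all tested genes). At least 2-fold changes were rarer, with 12.7% of genes higher and 6.67% lower.

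The family was shifted upwards in aggregates. Of 34 members that passed the filter, 21 were higher, 2 were lower and 11 did not pass the test, against the 37.1% higher and 37.1% lower over all genes. Of these 34, 18 were at least 2-fold higher and 1 at least 2-fold lower, beside 12.7% and 6.67% of all genes. The median log2 fold change of the tested members was 1.18, against -0.0016 for all tested genes. The values of 22 of the 34 members did not overlap between the formats, a smaller share than the 75.8% among all tested genes. Bulk RNA of this kind cannot tell fewer cells of a type from less RNA per cell.

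The filter itself bears on this count, because a gene with few monolayer reads could enter through the aggregates alone. Of the tested members, 17 had at least 10 reads in every library of both formats, and of these 12 were higher, 1 was lower and 4 did not pass, beside 35.1% higher among the 12671 genes that met the same condition. Another 12 members reached 10 reads in all 3 aggregates but not in all 3 monolayers, and 9 of them were higher, in a class of 755 genes of which 84.5% were higher. The 9 were Ccl3, Ccl6, Ccl8, Ccl11, Ccl19, Ccl21a, Cxcl13, Ccr1 and Ackr2, and the others Cxcl3, Cxcl10 and Xcr1. Only Cxcr6 reached 10 reads in all 3 monolayers but not in all 3 aggregates. It was lower, in a class of 180 genes of which 0 were higher. The direction of calls in these classes was thus in large part set by the filter. The 24 untested members were sparse, with at most 15.8 reads in any library and 45.7 reads over the 6 libraries, and none of them was at 0 throughout.

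**Figure D1:**
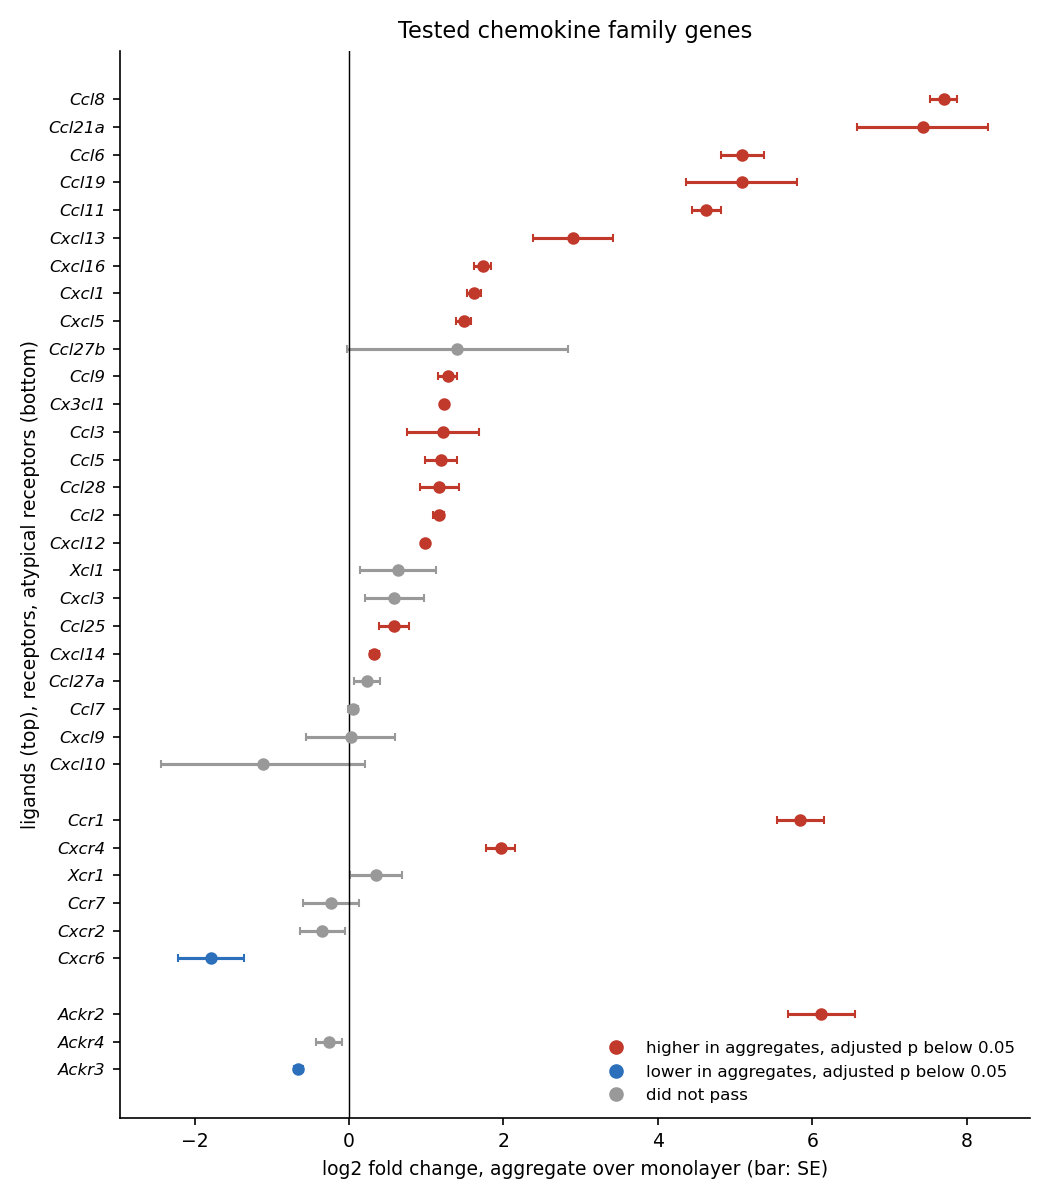
Log2 fold change (aggregate over monolayer, x axis, bars are the SE of the edgeR fit) of the tested family members, down the page as ligands, receptors and atypical receptors. Of the 34 members, 21 were called higher and 2, Cxcr6 and Ackr3, lower, and the rises range up to 7.70 for Ccl8.

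Regulatory sequence is given first for members that share a neighbourhood or stand at the extremes of the fold changes. The 250 bases before the transcription start, from RefSeq on GRCm38.p6, were matched by gene ID for 45 of the 58 members. The members without a window included Ccl2, Ccl4, Ccl5, Ccl7, Ccl11, Ccl24, Ccr7, Ccr10, Cxcl16, Cxcl17, Cxcl5 and Cxcr5. Capitals mark every match, on either strand, to the NF-kB consensus, the general binding motif of the NF-kB transcription factors. The first 3 windows belong to Cxcl1 (chr5:90890995-90891244), Cxcl2 (chr5:90903649-90903898) and Cxcl3 (chr5:90785851-90786100), neutrophil attractants on the plus strand of 1 cluster, and are shown because all of them carry the same site.
Cxcl1: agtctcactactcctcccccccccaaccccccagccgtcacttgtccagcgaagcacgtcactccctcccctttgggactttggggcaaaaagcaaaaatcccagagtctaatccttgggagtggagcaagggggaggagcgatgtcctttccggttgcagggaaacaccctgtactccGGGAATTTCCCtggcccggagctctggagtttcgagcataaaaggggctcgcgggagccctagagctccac
Cxcl2: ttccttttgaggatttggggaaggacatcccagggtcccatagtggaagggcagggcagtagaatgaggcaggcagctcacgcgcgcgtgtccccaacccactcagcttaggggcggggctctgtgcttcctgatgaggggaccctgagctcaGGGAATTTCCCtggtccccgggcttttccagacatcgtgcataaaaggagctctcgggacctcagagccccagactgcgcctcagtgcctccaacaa
Cxcl3: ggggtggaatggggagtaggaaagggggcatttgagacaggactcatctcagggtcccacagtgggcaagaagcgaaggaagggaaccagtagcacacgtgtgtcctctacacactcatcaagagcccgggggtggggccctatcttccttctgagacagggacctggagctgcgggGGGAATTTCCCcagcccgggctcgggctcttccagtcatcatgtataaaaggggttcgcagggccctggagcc
The shared word GGGAATTTCC began 71 bases before the start of Cxcl1, 97 before that of Cxcl2 and 73 before that of Cxcl3. The consensus also matched an overlapping copy 1 base further on, so the capitals run over 11 bases. This exact word was present for 4 of the 45 members, which were the 3 genes above and Ccr3, or 8.89%, and for 0.104% of 27025 genes with such a window. The word was taken from the Cxcl1 window itself, so its presence there was fixed in advance. These shares are therefore descriptive and no test of enrichment.

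The next pair is shown because its genes are neighbours in the CC cluster of chromosome 11 and differ in abundance. Ccl8 (chr11:82114935-82115184) was counted mainly in aggregates, while Ccl12 (chr11:82101595-82101844) was nearly absent in both formats. Both lie on the plus strand.
Ccl8: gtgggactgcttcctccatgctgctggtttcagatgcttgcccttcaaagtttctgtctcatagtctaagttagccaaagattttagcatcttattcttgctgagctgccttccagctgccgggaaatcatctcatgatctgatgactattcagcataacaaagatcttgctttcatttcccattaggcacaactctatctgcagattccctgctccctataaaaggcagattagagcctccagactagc
Ccl12: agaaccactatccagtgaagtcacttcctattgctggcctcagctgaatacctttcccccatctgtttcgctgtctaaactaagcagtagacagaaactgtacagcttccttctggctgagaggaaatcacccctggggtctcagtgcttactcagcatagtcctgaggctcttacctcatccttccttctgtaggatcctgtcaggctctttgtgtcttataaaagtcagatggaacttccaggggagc
Neither window held the consensus. The last pair belongs to the receptor genes with the largest rises, Ccr1 (chr9:123968693-123968942, minus strand) and Ackr2 (chr9:121898105-121898354, plus strand).
Ccr1: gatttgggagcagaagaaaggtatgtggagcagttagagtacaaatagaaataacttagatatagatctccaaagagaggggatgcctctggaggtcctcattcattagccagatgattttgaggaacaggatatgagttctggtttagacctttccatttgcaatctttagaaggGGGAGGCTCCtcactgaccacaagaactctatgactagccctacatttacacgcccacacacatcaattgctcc
Ackr2: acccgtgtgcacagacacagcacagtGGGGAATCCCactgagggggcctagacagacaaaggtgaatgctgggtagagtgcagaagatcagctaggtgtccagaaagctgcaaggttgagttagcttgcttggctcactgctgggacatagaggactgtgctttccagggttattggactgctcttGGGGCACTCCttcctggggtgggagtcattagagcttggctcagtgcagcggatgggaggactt
The capitals are GGGAGGCTCC, 74 bases before the start of Ccr1, and GGGGAATCCC and GGGGCACTCC, 224 and 64 bases before that of Ackr2. The consensus was found for 11 of the 45 members (24.4%) and for 8.23% of all genes. Of these members, Ackr2, Ccl9, Ccr1 and Cxcl1 were called higher, and Cxcl3 and Cxcl10 did not pass. Ccl1, Ccl20, Ccr3, Ccr6 and Cxcl2 were not tested. The AP-1 word TGANTCA was found for 6 members (13.3%) against 7.82% of all genes, and the C/EBP word TTGCNNAA for 5 members (11.1%) against 10.8%. Both strands were searched in each case. A match describes these letters and not binding by a factor.

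Among the monocyte attractants and the eotaxin Ccl11, 3 of 4 tested genes were higher in aggregates and by very different amounts. Of these, Ccl8 and Ccl11 passed the filter through the aggregates. Ccl8, which encodes a monocyte and T cell attractant, had 24.8, 23.2 and 23.1 CPM (counts scaled to library size) in aggregates, against 0.0930, 0.185 and 0.0461 CPM in monolayers. The formats were far apart and the monolayer libraries held only 7 reads in all, against 1563 in aggregates. The read ratio was 219 (95% counting interval 106 to 547), and the fitted log2 fold change was 7.70 ± 0.17 (SE, edgeR adjusted p = 1.63e-27). It was 8.30 without monolayer replicate 2, which held 4 of the 7 reads. Ccl11, the eotaxin that attracts eosinophils, had 13, 10.4 and 10.2 CPM in aggregates, against 0.558, 0.278 and 0.507 CPM in monolayers. The formats did not overlap, and the rise was 4.63 ± 0.18 (adjusted p = 1.09e-20).

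Ccl2, the main monocyte attractant acting on CCR2, had 37.6, 32.6 and 32.5 CPM in aggregates, against 15.6, 16.8 and 13.6 CPM in monolayers. The lowest aggregate stood above the highest monolayer, and the rise was 1.16 ± 0.07 (2.23-fold, adjusted p = 6.09e-13). Its neighbour Ccl7, another monocyte attractant, had 28.1, 25.6 and 23.9 CPM in aggregates, against 24.2, 24.9 and 25.7 CPM in monolayers. These values overlapped, and the log2 difference of 0.05 ± 0.06 did not pass (adjusted p = 0.435), with a read ratio of 1.04 (counting interval 0.968 to 1.11). Ccl2 and Ccl7 therefore exchanged their order of FPKM, the deposited level per gene length. Within a library, Ccl2 stood at 1.33, 1.26 and 1.35 times the FPKM of Ccl7 in aggregates, against 0.642, 0.669 and 0.523 times in monolayers.

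The 6 genes of this cluster lie within 144236 bases of chromosome 11 (82035577 to 82179812, GRCm38.p6) in the order Ccl2, Ccl7, Ccl11, Ccl12, Ccl8 and Ccl1. Ccl12, which lies just upstream of Ccl8 and encodes a mouse monocyte attractant, had 0 reads in aggregates and 1, 4 and 0 reads in monolayers. Ccl1 had 0 reads in aggregates and 1 in monolayers. Ccl24, another eotaxin, lies elsewhere and had 6 reads in aggregates and 8 in monolayers. The intervals and floors given for reads cover counting error only.

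**Figure D2:**
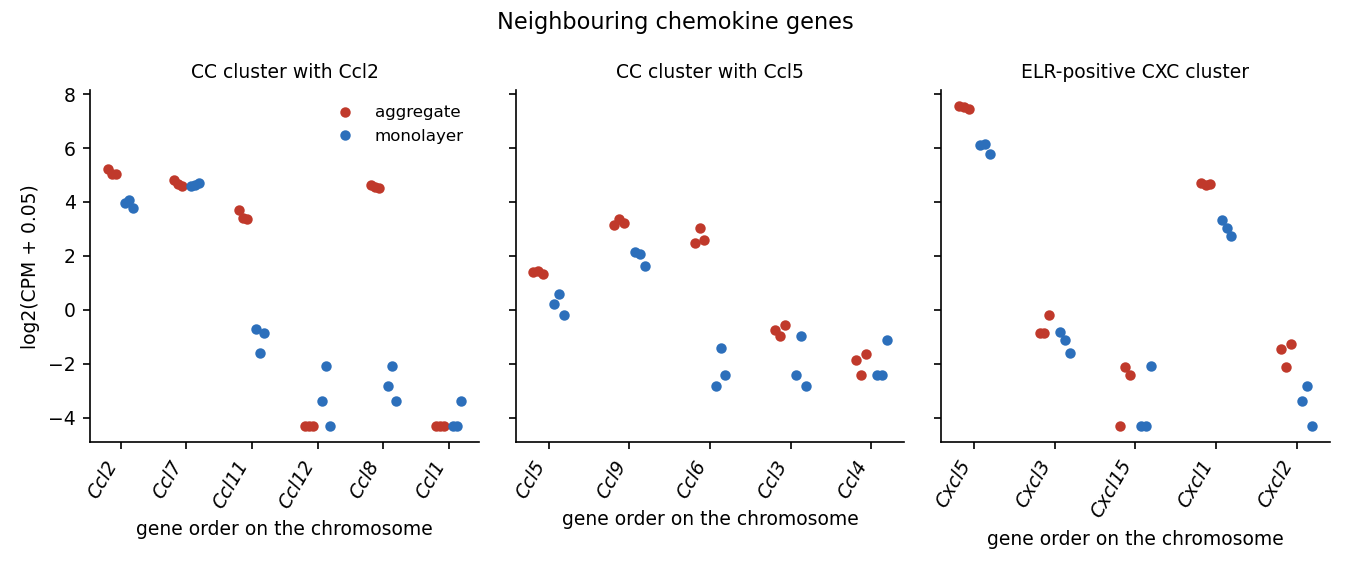
Log2(CPM + 0.05) of neighbouring chemokine genes in chromosomal order (x axis), 1 point per library, aggregates and monolayers in different colours. In the chromosome 11 cluster Ccl8 and Ccl11 separate the formats by 7.70 and 4.63 on the log2 scale of the fit, while Ccl7 between Ccl2 and Ccl11 overlaps.

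All 4 tested genes of the macrophage inflammatory protein group, which lie in a second CC cluster within 138906 bases (chromosome 11, 83525778 to 83664683), were higher in aggregates. Of these, Ccl3 and Ccl6 passed the filter through the aggregates. Ccl6, a rodent chemokine that binds CCR1, had 5.53, 8.14 and 5.90 CPM in aggregates, against 0.0930, 0.324 and 0.138 CPM in monolayers. That is 430 reads against 12, a ratio of 35.2 (counting interval 19.9 to 68.7), and the log2 fold change was 5.10 ± 0.28 (adjusted p = 2.26e-15), or 5.75 without monolayer replicate 2. Ccl9, a further CCR1 ligand of rodents, had 8.70, 10.2 and 9.16 CPM in aggregates, against 4.37, 4.16 and 3.04 CPM in monolayers. It was 2.42-fold higher (1.28 ± 0.12, adjusted p = 2.66e-11), with no overlap.

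Ccl5, an attractant of T cells and monocytes, had 2.58, 2.65 and 2.49 CPM in aggregates, against 1.12, 1.43 and 0.830 CPM in monolayers. It was 2.28-fold higher with no overlap (1.19 ± 0.21, adjusted p = 5.83e-06). Ccl3, a CCR1 ligand, rested on few reads, with 12, 10 and 14 in aggregates against 3, 10 and 2 in monolayers. Its log2 fold change of 1.22 ± 0.47 passed (adjusted p = 0.0201) although the formats overlapped. In edgeR the call was lost without aggregate replicate 3 (adjusted p = 0.0705), monolayer replicate 1 (adjusted p = 0.103) or monolayer replicate 3 (adjusted p = 0.131), and the value rose to 2.18 without monolayer replicate 2. Ccl4, the close relative whose annotated span overlaps that of Ccl3, had 14 reads in aggregates and 15 in monolayers.

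The receptor that Ccl3, Ccl5, Ccl6 and Ccl9 have in common, Ccr1, was higher too. Ccr1, carried by monocytes, neutrophils and osteoclast precursors, had 4.31, 5.26 and 4.72 CPM in aggregates, against 0.0930, 0.0925 and 0.0461 CPM in monolayers. Its 314 aggregate reads against 5 monolayer reads gave a ratio of 61.7 (counting interval 26.2 to 191), and the fitted rise was 5.85 ± 0.30 (adjusted p = 9.8e-18). Ackr2, the atypical receptor that scavenges inflammatory CC chemokines, had 2.22, 2.61 and 2.77 CPM in aggregates, against 0, 0.0463 and 0.0461 CPM in monolayers. Both genes were close to 0 in every monolayer and at similar levels in all aggregates. Ackr2 had 167 reads against 2, a ratio of 82.0 (counting interval 22.4 to 683) and a fitted rise of 6.12 ± 0.44 (adjusted p = 4.42e-14).

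Of the other CC receptors described here, Ccr7, the lymph node homing receptor, was the one tested and did not pass (-0.24 ± 0.36, adjusted p = 0.559). Ccr2, the receptor of Ccl2 and Ccl7, had 4.46 reads in aggregates and 2.72 in monolayers. Ccr3, bound by the eotaxins, had 8 reads in aggregates and 1 in monolayers. Thus transcripts of the receptors for the raised monocyte attractant and eotaxin were scarce in both formats, while Ccr1 was counted in each aggregate. Ccr10 had 35.7 reads in aggregates and 10 in monolayers, and Ccr9 had 10.9 and 3. Ccr4, Ccr6 and Ccr8 had 2 to 3 reads in aggregates and 0 to 2 in monolayers.

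Monocytes and macrophages express Ccr1 and many CC ligands, so their markers are given beside these values. Of 16 macrophage and monocyte markers, 15 were higher in aggregates and 0 lower, beside 37.1% higher and 37.1% lower over all tested genes. The median log2 fold change of the markers was 2.02, against -0.0016 over all tested genes. Their summed FPKM was 153 to 159 in aggregates and 28.9 to 32.1 in monolayers, and none was at 0. Csf1r, the receptor gene that defines the macrophage lineage, was the marker that did not pass and is named for that reason, after its value was seen (0.24 ± 0.11, adjusted p = 0.052). It had 5.62, 6.95 and 6.08 CPM in aggregates, against 5.21, 5.27 and 5.26 CPM in monolayers, and it passed under 6 of 15 alternative settings, with the same direction in each. The part of these cells in the chemokine values was not tested.

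Among the CXC ligands with the ELR motif, which act on CXCR2 and attract neutrophils, both abundant members were higher. Cxcl5 had 186, 186 and 177 CPM in aggregates, against 69.8, 70.9 and 55.5 CPM in monolayers. It was 2.80-fold higher (1.48 ± 0.10, adjusted p = 7.79e-05). Cxcl1 had 26.2, 24.8 and 25.2 CPM in aggregates, against 10.1, 8.05 and 6.69 CPM in monolayers. It was 3.06-fold higher (1.62 ± 0.09, adjusted p = 2.67e-12), and neither gene overlapped between formats.

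The remaining genes of this chromosome 5 cluster (90759298 to 90905938) were sparse, although Cxcl2 and Cxcl3 share the promoter word of Cxcl1 printed above. Cxcl3 had 11, 10.7 and 17.7 reads in aggregates and 11, 9 and 6 in monolayers and did not pass (0.59 ± 0.38, adjusted p = 0.158). Cxcl2 was not tested, with 7, 4.27 and 8.3 reads in aggregates against 1, 2 and 0 in monolayers, a ratio of 6.41 with a wide counting interval of 1.94 to 34.4. Cxcl15, a lung-expressed member, had 7.03 reads in aggregates and 4.32 in monolayers. The receptor Cxcr2 had a log2 difference of -0.35 ± 0.29 and did not pass (adjusted p = 0.287), and Cxcr1 had 2.98 reads in aggregates and 0 in monolayers. Of 9 neutrophil markers, 2 passed the filter and both were higher, beside 37.1% over all tested genes. The summed FPKM of the 9 was 15.5 to 17.1 in aggregates and 0.850 to 1.33 in monolayers. At such monolayer levels a marker could pass the filter through the aggregates alone. Ly6g, which defines mouse neutrophils, was at 0 in all aggregates.

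The ligands induced by interferon gamma, Cxcl9 and Cxcl10, which act on CXCR3, did not pass. Cxcl10 had 10, 12 and 16 reads in aggregates and 4, 6 and 71 in monolayers, so 1 library set the direction. The log2 value was -1.11 ± 1.32 (adjusted p = 0.492), and without monolayer replicate 3 it was 1.29 ± 0.51 (adjusted p = 0.0239). Cxcl9 had 13, 6.05 and 13 reads in aggregates and 1.01, 13.1 and 17.1 in monolayers, with a value of 0.02 ± 0.57 (adjusted p = 0.977). Their receptor Cxcr3 had 6 reads in aggregates and 4 in monolayers.

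Cxcl12, the stromal factor that binds CXCR4 and the atypical receptor ACKR3, was the most abundant member per length in both formats. It had 1249, 1258 and 1261 CPM in aggregates, against 619, 629 and 650.0 CPM in monolayers. Libraries of a format lay close together, and the rise of 0.99 ± 0.03 (1.99-fold, adjusted p = 3.14e-25) was well outside their spread. Cxcr4 had 4.35, 5.54 and 4.99 CPM in aggregates, against 0.790, 1.34 and 1.66 CPM in monolayers, a 3.91-fold rise (1.97 ± 0.19, adjusted p = 4.86e-11). Ackr3, which scavenges CXCL12, had 28.9, 26.5 and 25.8 CPM in aggregates, against 43.9, 43.7 and 40.4 CPM in monolayers. It fell 1.57-fold (-0.65 ± 0.05, adjusted p = 6.88e-13), opposite in direction to the other 2 genes of this axis.

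Per length, the ligand and its scavenger moved apart. The FPKM of Cxcl12 was 42.5 ± 2.60 times that of Ackr3 in aggregates and 14.1 ± 1.05 times in monolayers (mean ± SD of the ratio within libraries, n = 3 each). Cxcr4 stayed below Ackr3 in every library, at 0.213 ± 0.0336 times its FPKM in aggregates and 0.0343 ± 0.0128 times in monolayers. These ratios are of FPKM levels and describe mRNA.

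**Figure D3:**
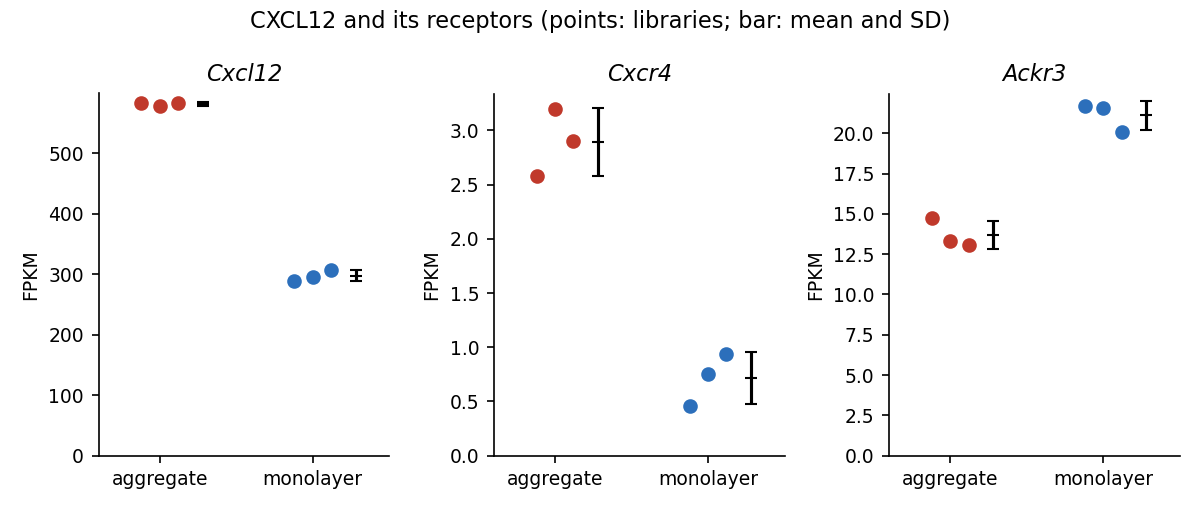
FPKM (y axis, from 0) of Cxcl12, Cxcr4 and Ackr3 in aggregates (left) and monolayers (right); points are libraries and bars the mean and SD. Cxcl12 and Cxcr4 are higher and Ackr3 is lower in aggregates, with no overlap for any of them.

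Cxcl12 and the other tested CXC ligands of its group, Cxcl13, Cxcl14 and Cxcl16, were higher, while Cxcl17 was not tested. Of these, Cxcl13 passed the filter through the aggregates. Cxcl14, a chemokine of skin and mesenchyme, had 389, 410.4 and 398 CPM in aggregates, against 342, 323 and 289 CPM in monolayers, a rise of 1.26-fold (0.33 ± 0.06, adjusted p = 0.00204). The formats did not overlap, but this was the smallest called rise of the family. Cxcl16, a membrane-bound ligand of CXCR6, had 12.3, 10.7 and 12.7 CPM in aggregates, against 3.39, 4.16 and 3.18 CPM in monolayers. It was 3.32-fold higher (1.73 ± 0.11, adjusted p = 2.6e-15). Cxcr6 itself was lower, with 4, 5 and 4 reads in aggregates against 13, 11 and 21 in monolayers (-1.79 ± 0.43, adjusted p = 0.000409). It passed the filter through the monolayers, so its direction was in large part set by that filter. Cxcl16 shares sequence with the annotated Zmynd15 and Cxcr6 with Fyco1, and the use of strand is not stated, so their reads may include those of the partner.

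Cxcl13, the B cell attractant, had 16, 15 and 17 reads in aggregates against 4, 0 and 2 in monolayers. Its ratio was 7.86 (counting interval 3.36 to 22.5) and its log2 fold change 2.90 ± 0.52 (adjusted p = 1.02e-05), or 3.81 without monolayer replicate 1. Cxcr5, its receptor, had 0 reads in aggregates and 1.01 in monolayers. Cxcl17 had 3 reads in aggregates and 0 in monolayers. Of 11 markers of T, NK and B cells, 3 passed the filter, 2 were higher and 0 lower, beside 37.1% higher and 37.1% lower over all tested genes. The summed FPKM of the 11 was 2.61 to 3.38 in aggregates and 1.49 to 2.83 in monolayers.

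Cx3cl1, or fractalkine, a membrane-anchored adhesion ligand that can be shed, had 205, 211 and 209 CPM in aggregates, against 88.7, 91.6 and 85.7 CPM in monolayers. It was 2.35-fold higher with little spread (1.23 ± 0.03, adjusted p = 1.19e-25). Its receptor Cx3cr1, found on monocytes and tissue macrophages, was below the filter, with 7.27 reads in aggregates and 19.0 in monolayers (ratio 0.376, counting interval 0.129 to 0.899). Xcl1 had 34, 7 and 16 reads in aggregates and 7, 14 and 15 in monolayers and did not pass (0.63 ± 0.50, adjusted p = 0.268). It passed without aggregate replicate 2 (1.02, adjusted p = 0.0171), while its value without aggregate replicate 1 was -0.08. Its receptor Xcr1 did not pass (0.35 ± 0.33, adjusted p = 0.353). Ccl22 and Ccl17, which flank Cx3cl1 on chromosome 8, were sparse: Ccl22 had 2 reads in aggregates and 0 in monolayers, and Ccl17 had 2 reads in aggregates and 13 in monolayers.

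**Figure D4:**
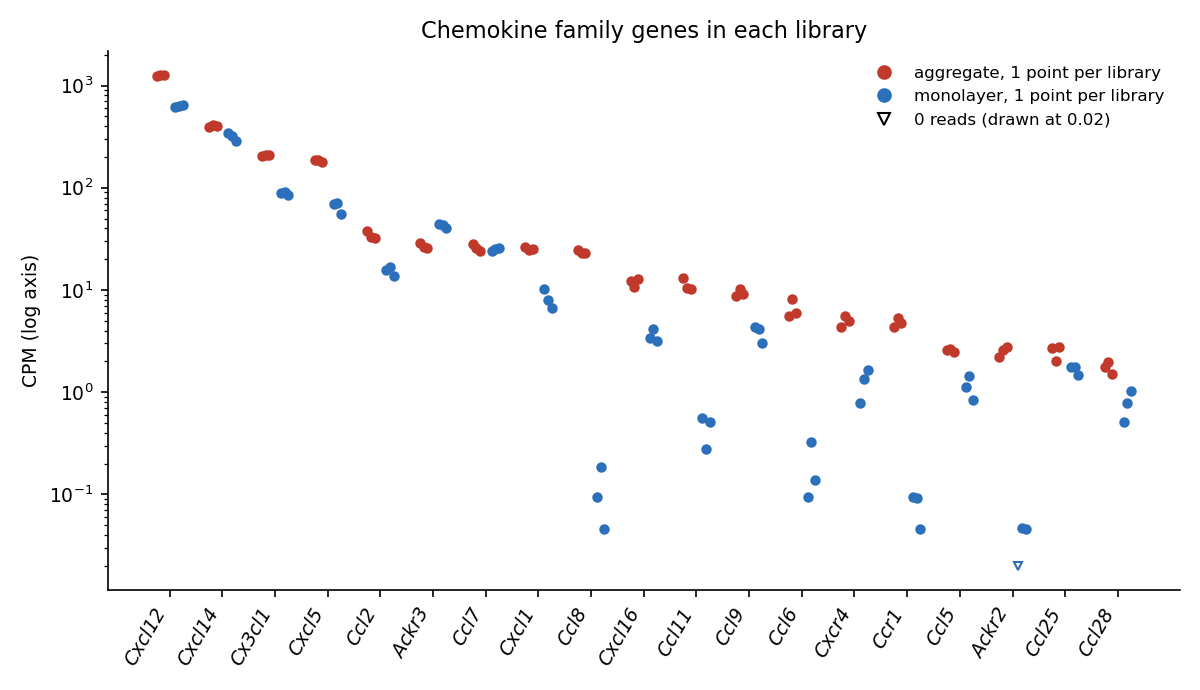
CPM (log axis) of the members given with a value in each library, 1 point per library, aggregates and monolayers side by side; marks for 0 values are defined in the legend. Ccl8, Ccl6, Ccr1 and Ackr2 lie at or below 0.324 CPM in monolayers, while Ccl7 is the gene among them with overlapping formats and Ackr3 the one lower in aggregates.

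Of the ligands that guide cells to lymphoid organs and epithelia, 6 of 11 passed the filter, and 4 were higher and 0 lower. Among these, Ccl19 and Ccl21a passed it through the aggregates. Ccl21a, a CCR7 ligand of lymphatic endothelium, had 24.9, 14.0 and 26.1 reads in aggregates and 0 in every monolayer, which makes it at least 21.3-fold higher when the monolayers together are set to 3 reads. Ccl19, the other CCR7 ligand, had 18.6, 16.7 and 10.9 reads in aggregates against 0, 0 and 1.49 in monolayers (ratio 30.5, counting interval 7.72 to 1823). Its fitted value was 5.08 ± 0.72 (adjusted p = 1.82e-07) and 6.97 without monolayer replicate 3. Ccl21a has the near-identical copy Ccl21b, with 12.3 reads in aggregates and 1 in monolayers, and Ccl19 and Ccl21a overlap the annotated 4930578G10Rik, so these assignments are uncertain. Of 15 endothelial markers, 14 were higher and 0 lower in the same libraries (median 2.70), beside 37.1% higher and 37.1% lower over all tested genes. Their summed FPKM was 207 to 215 in aggregates and 84.5 to 85.8 in monolayers. Their part in the Ccl21a and Ccl19 values was not tested.

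Ccl28, a mucosal ligand of CCR10, had 1.77, 1.97 and 1.5 CPM in aggregates, against 0.511, 0.786 and 1.01 CPM in monolayers, a 2.25-fold rise (1.17 ± 0.26, adjusted p = 0.000138). Ccl25, the thymic and gut ligand of CCR9, had 2.72, 2.01 and 2.77 CPM in aggregates, against 1.77, 1.76 and 1.48 CPM in monolayers. Its rise was smaller (0.58 ± 0.19, adjusted p = 0.00664) and did not pass in DESeq2 (adjusted p = 0.0735). The skin chemokine Ccl27a did not pass (0.23 ± 0.16, adjusted p = 0.2), nor did its near-identical copy Ccl27b, whose reads were 42.1, 33.9 and 0.14 in aggregates and 0, 20.9 and 6.90 in monolayers (1.40 ± 1.43, adjusted p = 0.427). The reads of Ccl27b varied more within a format than between them, and both genes overlap interleukin 11 receptor genes. Ccl20, the CCR6 ligand, had 13 reads in aggregates and 6 in monolayers.

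The remaining atypical receptors differed little or were sparse. Ackr4, which scavenges the CCR7 ligands, averaged 2.23 CPM in aggregates and 2.67 CPM in monolayers and did not pass (-0.26 ± 0.17, adjusted p = 0.167). Ackr1, the erythroid and venular chemokine binder, had 15.8, 6.74 and 0.3 reads in aggregates and 3.61, 3.24 and 0 in monolayers. The 3 tested atypical receptors therefore went in different directions, with Ackr2 higher, Ackr3 lower and Ackr4 not past the threshold.

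Summed over the 36 ligands, FPKM was 1216, 1197 and 1196 in aggregates, against 629, 632 and 609 in monolayers. The ratio of means was 1.93. All aggregates were above all monolayers, which in an exact 2-sided permutation test over 3 and 3 libraries gives p = 0.1, the smallest this design allows. Without Cxcl12 and Cxcl14, the sum was 394 ± 14.0 FPKM in aggregates and 149 ± 8.03 FPKM in monolayers (SD, n = 3 each), a ratio of 2.65. The ligand mRNA pool was thus dominated by a few genes in both formats.

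Cxcl12 held 48.3 ± 0.418% of the summed ligand FPKM in aggregates and 47.8 ± 2.41% in monolayers. Its mean share thus differed by less than the SD of the monolayers, though not of the aggregates. Cxcl14 held 18.9 ± 0.535% in aggregates and 28.4 ± 1.85% in monolayers. Cxcl5 held 9.57% in aggregates and 6.44% in monolayers, and Cx3cl1 held 5.67% in aggregates and 4.54% in monolayers. Ccl8 differed widely in rank: at 51.9 ± 2.33 FPKM it was the ligand of rank 5 in aggregates, and at 0.233 ± 0.153 FPKM it was of rank 20 in monolayers. Ccl7 was of rank 7 in aggregates and rank 4 in monolayers, with 34.8 ± 2.94 FPKM in aggregates and 32.8 ± 1.14 FPKM in monolayers. Shares sum to a fixed total, so a fall of 1 share does not mean a fall of that gene's level.

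**Figure D5:**
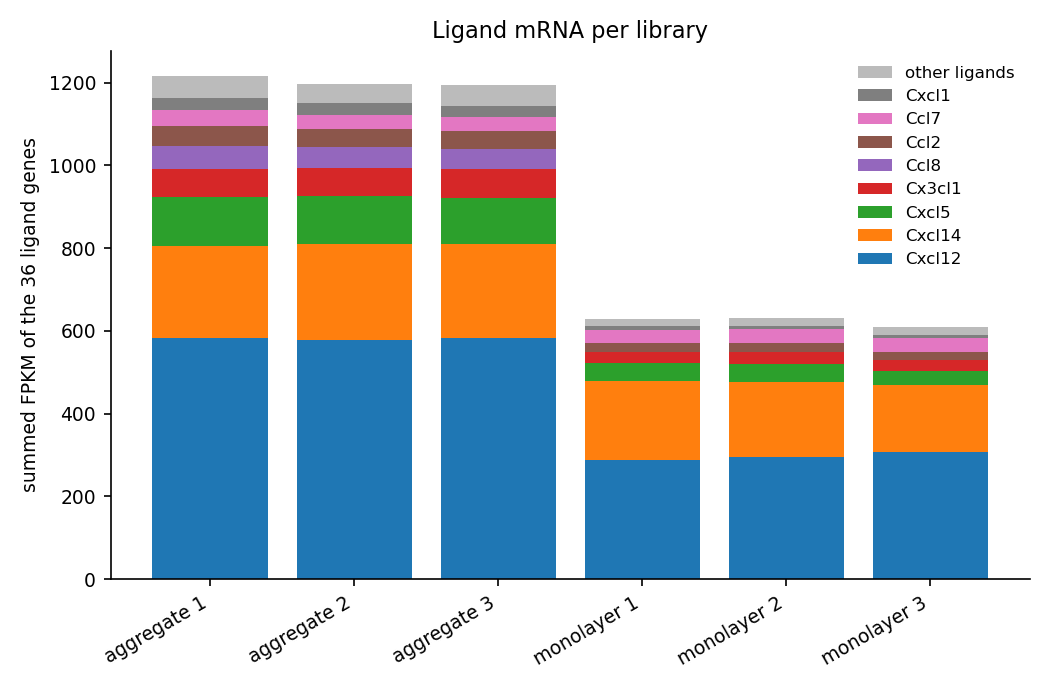
Summed FPKM of the ligands in each library (y axis), stacked by ligand, with the 3 aggregates left of the 3 monolayers. The columns reach 1196 to 1216 FPKM in aggregates and 609 to 632 FPKM in monolayers, and Cxcl12 fills 48.3% of them in aggregates and 47.8% in monolayers.

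Around the family, genes of chemokine production, presentation and processing were read from lists of known function. Counts called in these lists, here and in the paragraphs that follow, stand beside 37.1% higher and 37.1% lower over all tested genes. Of 15 genes of NF-kB subunits, feedback inhibitors and upstream kinase components such as Chuk and Map3k14, 11 were higher and 3 lower (median 0.31, against -0.0016 over all tested genes). The largest rises were those of the inducible inhibitors and regulators Nfkbiz (1.70 ± 0.05), Nfkbia (1.43 ± 0.05) and Tnfaip3 (1.28 ± 0.11), and the falls those of Rel (-0.61 ± 0.10), Map3k14 (-0.40 ± 0.08) and Chuk (-0.16 ± 0.05). Of 21 tested cytokines and receptors that induce chemokines, 15 were higher and 4 lower (median 0.49), led by the cytokines Lif (2.49 ± 0.06) and Il6 (1.93 ± 0.07) and the TNF receptor Tnfrsf1b (1.31 ± 0.04). Il17rc (-0.93 ± 0.05), Il1rap (-0.45 ± 0.04) and Il6st (-0.35 ± 0.03), receptor chains of interleukins, were lower.

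Chemokines are cut or shed by proteases, and all 13 tested genes of that list were higher (median 1.95), led by Mmp3 (7.51), Mmp12 (7.03) and Mmp9 (6.99). Dpp4 and Elane were not tested. Dpp4 had fewer reads in aggregates, 15.05 against 41.29 in monolayers (ratio 0.358, counting interval 0.185 to 0.663), with overlapping formats. Elane had 6 reads in aggregates and 2 in monolayers. Chemokines are held on cell surfaces by heparan sulphate, whose 24 proteoglycan and synthesis genes split into 12 higher and 10 lower (median 0.14). Core proteins Sdc1 (1.79 ± 0.03) and Agrn (1.32 ± 0.05) and the sulphotransferase Hs3st1 (1.21 ± 0.12) were higher, and Hs6st2 (-2.58 ± 0.05), Hs3st3b1 (-1.52 ± 0.13) and Gpc3 (-1.44 ± 0.04) lower.

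Of 22 tested genes of signalling below the receptors, 10 were higher and 8 lower (median 0.06). Rgs2, which shortens G protein signals (3.20 ± 0.08), Gng2 (0.84 ± 0.07) and Arrb1 (0.84 ± 0.06) rose, while the inhibitory G protein subunits Gnai1 (-1.29 ± 0.09) and Gnai2 (-0.37 ± 0.03) and the regulator Rgs4 (-1.22 ± 0.08) fell. Of 13 chemokine-like genes outside the naming rule, 7 were higher and 2 lower (median 0.10). Cmklr1, the chemerin receptor (1.96 ± 0.05), Cmtm3 (0.67 ± 0.03) and Gpr35 (0.47 ± 0.12) rose and Cmtm7 fell (-0.47 ± 0.05).

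The platelet chemokines Pf4 and Ppbp are CXC ligands with other symbols, and are named here after their values were seen. Pf4 had 46, 55 and 61 reads in aggregates against 7, 10 and 2 in monolayers (3.04 ± 0.31, adjusted p = 1.8e-10). Ppbp went the other way, with 10, 9 and 9 reads in aggregates against 44, 34 and 41 in monolayers (-2.10 ± 0.27, adjusted p = 3.47e-08).

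Markers of periosteum and bone were detected in both formats. Of 16 periosteal and skeletal progenitor markers, all were detected, 9 were higher and 6 lower in aggregates (median 0.21). Their summed FPKM was lower in aggregates, at 3511 to 3593 against 4439 to 4497 in monolayers. Of 10 osteoblast markers 6 were higher and 3 lower (median 0.85), with Bglap at 0 in all monolayers. The osteoblast list summed to 20690 to 21640 FPKM in aggregates and 9277 to 9361 FPKM in monolayers. Markers of further cell types were also higher and none was called lower, beside 37.1% higher and 37.1% lower over all tested genes. These were 11 of 11 tested skeletal muscle genes, 7 of 7 of osteoclasts, 8 of 8 of Schwann cells, and the 1 tested gene each of mast cells and epithelium. The muscle list summed to 706 to 741 FPKM in aggregates and 35.8 to 38.9 FPKM in monolayers. The mast cell and epithelial lists reached at most 0.34 and 0.35 FPKM in monolayers, so their tested gene could pass the filter through the aggregates alone. Dcstamp, the osteoclast fusion gene, was at 0 in monolayers, and the epithelial keratins Krt14 and Krt8 at 0 in both formats. How far these cells carried the chemokine differences was not tested.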

How the data were processed

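Total RNA of 3 aggregate and 3 monolayer libraries was sequenced on the DNBSEQ platform, per the labels' protocols, and HISAT and GRCm38.p6 are named in the submitters' processing notes. Versions, counting tool, annotation and strand use: not given in the sources used here. Values per gene include expected counts deposited by the authors, estimates that can be fractional (28.9% to 30.6% of values per library had decimals). The deposited FPKM values are normalised to gene length and depth, per the file headers.

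Counts were rounded, filtered with filterByExpr (minimum count 10) and tested with edgeR 4.0.16 in R 4.3.3, by robust quasi-likelihood fits with TMM scaling, at a threshold of 0.05 on p-values adjusted by Benjamini-Hochberg over 13708 genes. CPM were scaled with the TMM factors (0.985 to 1.02), and the SE is the log2 fold change divided by the root of its F statistic. Where 1 format has few reads this SE understates the error, and the 95% exact counting interval of the read ratio is given beside it. FPKM served for levels between genes. Library pairs of a format differed by more than counting noise (mean chi-square per gene 1.90 to 2.91), so each was counted once. Gene IDs matched RefSeq GRCm38.p6 for 17948 genes and all 58 members. Counts of 25 members were not whole in at least 1 library, and 22 members overlap another gene.

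Members are named, except that the results of some items are not reported here. Values in every library are given for called members with a mean of at least 1 CPM in the higher format and for others of at least 5 CPM, and of each pathway list up to 3 called genes in each direction with at least 5 CPM are named. The members and the 17 gene lists were chosen with earlier results of these data known. On simulated counts for this comparison, 98% of genes changed 1.5-fold and 100% of those changed 2-fold, 4-fold or 8-fold were recovered, with 200 of 13565 genes changed. Changes were planted only in genes with counts well above the filter. Those of 1.5-fold and 2-fold were rises, and those of 4-fold and 8-fold were falls. The rates therefore do not cover members with few reads or large rises. Alternatives were other scalings and filters, DESeq2 1.42.0, limma 3.58.1 on log2 FPKM, a stricter threshold, a replicate block and leaving out each library.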

Additional observations from a re-analysis of the deposited data

How the results depend on the processing

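The family held 20 to 25 higher members under each alternative, against 21 in the main analysis, and 17 to 22 at least 2-fold higher, except 11 with limma on log2(FPKM + 1), with or without the filter, a scale that understates the change of low genes. Lower members numbered 4 in edgeR without a filter on low counts, where Ccl12 and Ccl17 were added. They numbered 1 with limma on filtered log2(FPKM + 1) or log2(FPKM + 0.1), and 3 with limma on log2(FPKM + 1) without the filter. Without each library in turn, 20 to 23 members were higher, 2 lower and 17 to 20 at least 2-fold higher, over all genes 4896 to 5021 were higher and 4800 to 5021 lower, and the summed ligand ratio was 1.91 to 1.94. Of 496 comparisons of single members with an alternative, 488 kept direction and side of the threshold. The exceptions were Ccl3 in 5, Ccl25 in DESeq2, Xcl1 without 1 library and Cxcl10, whose log2 value was -1.63 to 1.29 over the fits without a library, changing sign without monolayer replicate 3, which held 71 of 81 monolayer reads. The cause of the other changes was not tested. The numbers of the replicates were not taken to pair the libraries, since the correlations of same-numbered deviations were -0.0339, 0.117 and -0.0328. With a replicate block, 21 members were higher and 2 lower. Depth limits the 24 untested members and those with few monolayer reads, where folds carry wide counting intervals.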

Other observations

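Several members with near-identical or overlapping neighbours had estimated counts that jumped within a format. Ccl27b had 42.1, 33.9 and 0.14 estimated reads in aggregates and 0, 20.9 and 6.90 in monolayers, and Ackr1 had 15.8, 6.74 and 0.3 in aggregates and 3.61, 3.24 and 0 in monolayers. Both genes overlap another annotated gene.

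Ligand and receptor read totals differed in scale. Over the family, the 36 ligands held 145993 reads in aggregates and 75944 in monolayers. The 18 typical receptors held 882 in aggregates and 314 in monolayers, and the 4 atypical receptors 2124 in aggregates and 2946 in monolayers. These totals are not scaled to gene length or to the number of genes in a class. Atypical receptor reads were thus lower in aggregates, and most of them came from Ackr3, with 1787 reads in aggregates and 2764 in monolayers.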
